A study of Mus musculus with 36 samples.

Results

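Mouse embryonic fibroblasts (MEFs) on their way to induced pluripotent stem cells were compared at day 5 of reprogramming, with and without Zfp266, by mRNA sequencing. The comparison rests on 6 of the 36 libraries of the series, 3 that received a guide against Zfp266 (Zfp266-KO) and 3 that received a non-targeting control guide (control). The libraries were taken by their labels, so no measured value chose them. The cells of both groups were 129-strain MEFs that carried Cas9, a Nanog-GFP reporter and a doxycycline-inducible cassette (MKOS, in which Myc, Klf4, Oct4 and Sox2 are made together with the orange fluorescent protein mOrange). They were transduced with the guide 1 day before doxycycline and vitamin C were added, were grown among an excess of fibroblasts without the cassette, and were flow-sorted as mOrange-positive cells before RNA extraction. The knockout group is therefore a population of edited cells with a mixture of alleles, not a clone, and both groups express the 4 factors and Cas9. Control MEFs and control embryonic stem cells (ESCs) of the same series served as the start and the end of the path, with 3 libraries each. The 3 control ESC libraries come from 1 parental line, so their spread does not include differences between lines.

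In reprogramming, a fibroblast first loses part of its mesenchymal programme, then passes through an intermediate state with epithelial features, and a minority of cells later switch on the self-sustaining pluripotency network around Nanog, Esrrb, Sall4 and the Dppa genes. Zfp266 belongs to the KRAB zinc finger proteins, a large vertebrate family in which the zinc fingers contact DNA and the KRAB domain recruits the corepressor TRIM28 (KAP1). These genes are often active in stem cells and early embryos, where they are best known for silencing transposable elements.

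The guide is shown because it defines the knockout group. Among the designed Zfp266 guides, the one marked in the study's oligonucleotide list for detailed work is given 5′ to 3′ with the protospacer in lower case and the adjacent PAM, read from the GENCODE transcript, in capitals. Which guide the day 5 libraries received is not given in the sources used here.
Zfp266.sgR3: cagaagaatctataccgagAGG
It lies at chr9:20505091-20505109 (GRCm38) in exon 6 of the 9 exons of transcript Zfp266-202, in the sense orientation of a gene on the minus strand, and its first base falls in codon 62 of 604. Zfp266 itself (ENSMUSG00000060510, chr9:20495068-20521417) was read at 1266, 1481 and 1519.8 normalised counts in the control libraries and 1507, 1646 and 1707 in the Zfp266-KO libraries. The ranges of the groups overlapped, and the difference did not pass the test (log2 fold change 0.19 ± 0.08 (SE), FDR 0.124). An edit in a coding exon need not lower the number of reads over a gene, so this level does not check the knockout label.

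The 6 libraries held between 29040333 and 39610939 counts, against 19224103 to 39610939 over the series. Values below are normalised counts, that is, counts divided by DESeq2's median-ratio size factor for each library, and they compare libraries, not genes of different length. A gene was called differentially expressed (DEG) at a false discovery rate (FDR, Benjamini-Hochberg) below 0.05 and an absolute log2 fold change above 1 in DESeq2's Wald test on all 36 libraries. "Rose" and "fell" are used for an FDR below 0.05, also where the change was smaller than 2-fold. Fold changes are Zfp266-KO over control. The spread behind the p-values was estimated for each gene within all 12 groups together, not from the day 5 libraries alone. The labels do not tie the 3 samples of a group to separate embryos, so this is a spread between samples. In bulk libraries, more cells that express a gene and more RNA per cell cannot be told apart.

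At day 5, 143 of 17694 tested genes (0.808%) were DEGs with higher levels in Zfp266-KO cells and 67 (0.379%) were DEGs with lower levels. By FDR alone, 835 genes (4.72%) were higher and 430 (2.43%) lower, and the median log2 fold change of all tested genes was -0.01. The fitted fold changes of the higher genes were larger than those of the lower ones. They were not shrunk and the 2 sets differed in level (given below), so the sizes are not matched for level. Their median absolute log2 fold change was 1.55, against 1.18 for the lower genes, and 41 of the 143 passed an absolute value of 2, against 7 of the 67. In 138 of the 143 higher and 63 of the 67 lower genes the 3 Zfp266-KO libraries did not overlap the 3 control libraries, which held for 32.3% of all tested genes. The counts depended on single libraries: without Zfp266-KO replicate 2, 85 genes were called higher and 27 lower, and without control replicate 3 the lower genes numbered 42.

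Most of the higher genes started low. Their median level over genes was 19.4 normalised counts in day 5 controls and 56.2 in day 5 Zfp266-KO cells, and 51 of the 143 were under 10 in the controls. The lower genes had a median of 89.6 in controls and 41.2 in Zfp266-KO cells. By GENCODE biotype, 118 of the higher genes were protein-coding, 11 long noncoding RNAs and 14 pseudogenes, whereas 65 of the 67 lower genes were protein-coding and none was a pseudogene. Pseudogenes made up 14.5% of all tested genes and 9.79% of the higher genes.

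**Figure D1:**
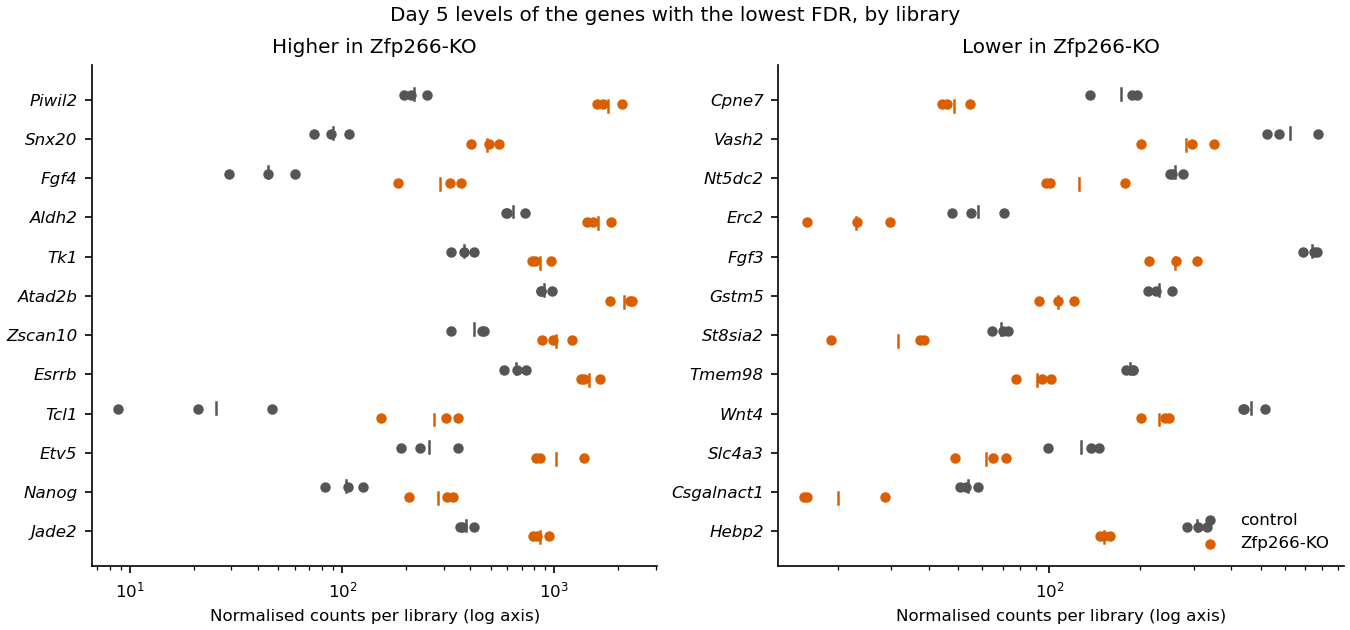
Normalised counts per library at day 5 on a log axis for the 12 DEGs of lowest FDR in each direction, among those whose 3 Zfp266-KO and 3 control libraries did not overlap. Each dot is 1 library, and the short vertical line is the mean of the 3 libraries of a group; among the means, the gap is widest for Tcl1, Piwil2 and Fgf4 in the left panel and for Cpne7 in the right panel.

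Most genes of the naive pluripotency network rose. The list holds transcription factors and also Tcl1, which is not one. Of its 17 genes, all tested, 13 rose (76.5%, against 4.72% of all tested genes), 10 of them past the fold threshold, and none fell. The median log2 fold change of the list was 1.17. These genes include the regulators that hold mouse ESCs in the ground state. Nanog, the homeodomain factor at the centre of that network, was read at 82.5, 106 and 125 normalised counts in the control libraries and 207, 334 and 311 in the Zfp266-KO libraries (log2 fold change 1.44 ± 0.17 (SE), FDR 1.95e-14). The groups did not overlap, and the lowest Zfp266-KO library stood above the highest control. Separate groups were a condition of the rule that named genes by lowest FDR, Nanog among them, so the separation is not further evidence. Esrrb, an orphan nuclear receptor that works beside Nanog, was 669, 735 and 579 in controls and 1336, 1646 and 1377 in Zfp266-KO cells (log2 fold change 1.14 ± 0.11 (SE), FDR 7.33e-20). Zscan10, a zinc finger factor of ESCs, went from 467, 455 and 327 to 980.5, 1211 and 875 (log2 fold change 1.29 ± 0.13 (SE), FDR 2.33e-20). In both genes every Zfp266-KO library was higher than every control, and both were also named by the lowest-FDR rule, which required separate groups.

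Tcl1, a coactivator of the kinase AKT that is a direct target of the ESC network, rose from a low level. It was read at 8.74, 46.4 and 20.8 normalised counts in the control libraries and 152, 307 and 353 in the Zfp266-KO libraries (log2 fold change 3.43 ± 0.35 (SE), FDR 7.33e-20). The remaining factors past both thresholds fell outside the naming rule. Their mean levels went from 289 to 726 for Zfp42 (Rex1, a zinc finger marker of naive cells; log2 fold change 1.32), from 397 to 894 for Tfcp2l1 (1.17), from 85.1 to 223 for the nuclear receptor Nr5a2 (1.38), from 8.39 to 35.4 for Nr0b1 (2.04) and from 21.5 to 57.4 for Klf2 (1.41). Prdm14, a regulator shared by naive cells and the germline, was at 0 in all 3 control libraries and at 5.72, 17.8 and 7.71 in the Zfp266-KO libraries (FDR 0.000157). Set against 3 counts over the 3 controls, it was at least 10.3-fold higher. Among the factors that rose by less than 2-fold were Sall4 and Mybl2 (0.97 and 0.56 on the log2 scale). The 4 factors that did not pass were Utf1 (-0.64, FDR 0.153), Tbx3 (0.26, FDR 0.546), Tfap2c (0.51, FDR 0.657) and Klf5 (0.01, FDR 0.98). With the replicate number as a block, Utf1 fell (-0.66, FDR 0.0157).

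The 4 reprogramming factors themselves were read from the transgene and the endogenous genes together. None of the 4 passed the test in the fit of all 36 libraries. With the 6 day 5 libraries alone, and with these and the replicate number as a block, 1 of the 4 rose. Pou5f1 (Oct4) was at a mean of 46599 in controls and 54200.4 in Zfp266-KO cells (log2 fold change 0.22 ± 0.11, FDR 0.235), and Sox2, Klf4 and Myc had log2 fold changes of -0.05, -0.05 and -0.04.

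Of 22 late pluripotency and RNA-binding genes, 8 rose (36.4%, against 4.72% of all tested genes) and none fell. Tet1, the enzyme that oxidises 5-methylcytosine in ESCs, was read at 109.7, 90.8 and 168 normalised counts in the control libraries and 264, 446 and 386 in the Zfp266-KO libraries (log2 fold change 1.57 ± 0.20 (SE), FDR 1.12e-12). Dppa5a, an RNA-binding KH-domain protein of ESCs, was at 0, 5.16 and 2.08 in controls and at 79.2, 183 and 106 in Zfp266-KO libraries (log2 fold change 5.69 ± 0.77 (SE), FDR 7.73e-11). The lowest Zfp266-KO library stood far above the highest control. L1td1, an RNA-binding protein derived from a LINE-1 open reading frame, was already abundant and rose from 5458, 5185 and 5307 to 7292, 9056 and 7818 (log2 fold change 0.60 ± 0.09 (SE), FDR 9.02e-10). Dppa4 and Dppa2, chromatin proteins encoded side by side, were at means of 8.33 and 0.344 in controls and 27.2 and 18.7 in Zfp266-KO cells. Fbxo15, Trim71 and Slc2a3 made up the rest of those that rose (1.01, 0.52 and 0.47). Other genes of the same late programme remained near 0 in both groups: Dppa3 had a mean of 0 in controls and 0.699 in Zfp266-KO cells, and Khdc3 0 and 0.668. Lin28a (log2 fold change 0.20, FDR 0.312) and Tdh (-0.07, FDR 0.742), which were abundant in controls by day 5, did not pass.

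The secreted signals of pluripotent cells rose in 4 of 10 tested members (40%, against 4.72% of all tested genes), and none fell. Without Zfp266-KO replicate 3, and with the 6 day 5 libraries and the replicate block, 1 member fell. Fgf4, the growth factor that ESCs make and respond to through ERK, was 29.1, 59.9 and 44.8 in controls and 182, 364 and 321 in Zfp266-KO cells, a 6.51-fold difference (log2 fold change 2.70 ± 0.23 (SE), FDR 1.61e-28). Gdf3, a TGF-beta family ligand, went from 30.1, 49.5 and 38.5 to 65.8, 145 and 118 (log2 fold change 1.48 ± 0.24 (SE), FDR 1.4e-07). Nodal, another ligand of that family, was at 1.94, 1.03 and 1.04 and 4.77, 17.8 and 9.25 (log2 fold change 2.94 ± 0.78 (SE), FDR 0.00483). The groups did not overlap for these 3 genes, which the lowest-FDR rule required for Fgf4 only. Nodal and the Nodal coreceptor Tdgf1 (Cripto; log2 fold change 2.09 ± 0.69, FDR 0.0401) had few counts or a wide spread, and without Zfp266-KO replicate 2 the number of signals that rose was 2. Lefty1, an inhibitor of Nodal, had a log2 fold change of -1.02 ± 0.42 (FDR 0.129).

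Of 18 FGF and ERK feedback genes, 2 rose (11.1%, against 4.72% of all tested genes) and none fell. This count depended on the fit: 9 rose and 1 fell with the 6 day 5 libraries alone, 11 rose and 1 fell with these and the replicate block, and with the block over all libraries the receptor Fgfr3 fell (log2 fold change -0.95, FDR 0.0212). Etv5, an ETS factor induced by FGF, was 349, 231 and 188 normalised counts in the control libraries and 820.2, 1386 and 859 in the Zfp266-KO libraries (log2 fold change 1.99 ± 0.23 (SE), FDR 3.16e-15). Its relative Etv1 was 23.3, 57.8 and 40.6 in controls and 56.3, 125 and 113 in Zfp266-KO cells, with overlapping groups (log2 fold change 1.27 ± 0.43 (SE), FDR 0.0464). Etv1 did not pass in edgeR, after the low-count filter, without control replicate 1 or 3, or without Zfp266-KO replicate 2 or 3. The third member of that ETS subfamily, Etv4, had a log2 fold change of -0.07 ± 0.50 (FDR 0.969), and the feedback inhibitors Spry2, Spry4 and Dusp6 had values of 0.46 ± 0.17, 0.69 ± 0.41 and 0.95 ± 0.42 with FDRs of 0.0823, 0.38 and 0.177.

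Fgf4 stands beside 2 further FGF genes on chromosome 7, and these changed the other way. By the GENCODE gene bounds, Fgf3 (chr7:144838083-144844436) ends 2930 bases before Fgf4 (chr7:144847367-144865243) begins, and Fgf15 (chr7:144896531-144900953) lies 31287 bases further on. The RefSeq start of Fgf4 used for the window below lies inside these bounds. It is therefore further from Fgf3 than this gap. Fgf3, a ligand of the FGF7 subfamily, was 768, 693 and 752 in controls and 307, 214 and 262 in Zfp266-KO cells (FDR 6.8e-06), so that the mean fell to 0.354 of the control mean. Fgf15, an endocrine-type FGF that is also made in embryonic neural tissue, was 289, 249.8 and 338 in controls and 144, 87.1 and 196 in Zfp266-KO cells (log2 fold change -1.03 ± 0.33 (SE), FDR 0.0263). In controls Fgf3 and Fgf4 also ran in opposite directions from day 3 on. Fgf3 was at 1.08 ± 0.946 (SD, n = 3) in MEFs, 1032 ± 181 at day 3, 294 ± 99.1 at day 7 and 33.7 ± 4.25 in ESCs. Fgf4 was at 0 in MEFs, at 1.92 ± 2.57 at day 3, 648 ± 127 at day 7 and 5798 ± 139 in ESCs. The 3 genes were brought together here after their values were seen. The windows from 250 bases before to 50 bases after the RefSeq start (GRCm38.p6, plus strand) of the 2 genes that lie closest are shown, chr7:144838362-144838661 for Fgf3 and chr7:144861136-144861435 for Fgf4; neither holds one of the 3 motifs described further on, so all letters are in lower case.
Fgf3: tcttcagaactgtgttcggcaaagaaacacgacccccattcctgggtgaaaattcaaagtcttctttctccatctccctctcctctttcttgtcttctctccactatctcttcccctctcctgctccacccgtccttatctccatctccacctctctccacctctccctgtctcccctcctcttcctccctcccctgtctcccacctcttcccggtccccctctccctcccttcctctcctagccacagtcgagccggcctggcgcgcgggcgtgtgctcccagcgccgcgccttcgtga
Fgf4: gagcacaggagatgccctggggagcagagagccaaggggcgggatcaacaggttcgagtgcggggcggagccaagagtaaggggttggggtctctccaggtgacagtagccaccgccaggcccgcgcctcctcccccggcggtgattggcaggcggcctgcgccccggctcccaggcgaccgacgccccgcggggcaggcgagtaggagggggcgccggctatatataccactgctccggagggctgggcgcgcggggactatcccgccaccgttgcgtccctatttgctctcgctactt

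**Figure D2:**
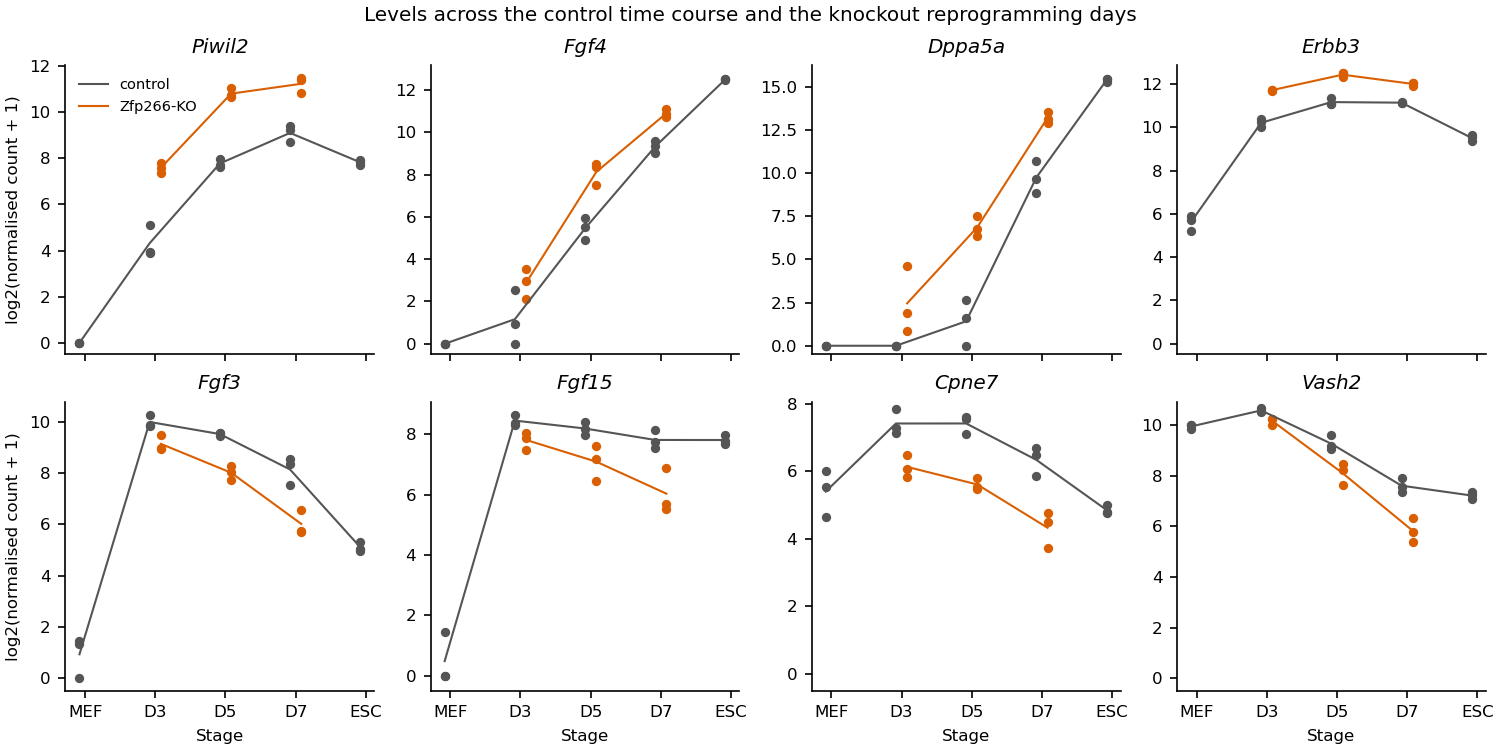
Levels of 8 genes as log2(normalised count + 1) in MEFs, at days 3, 5 and 7 and in ESCs. Dots are single libraries and lines join the group means of the log values; grey is control and orange is Zfp266-KO, which is drawn for the 3 reprogramming days. Piwil2, Fgf4, Dppa5a and Erbb3 lie higher in Zfp266-KO cells at day 5, and Fgf3, Fgf15, Cpne7 and Vash2 lie lower.

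Among 28 tested germline and piRNA genes, 2 rose (7.14%, against 4.72% of all tested genes) and none fell. Piwil2, a PIWI protein that binds piRNAs and silences transposons in the male germline, had the lowest FDR of the DEGs. It was read at 195, 251 and 210.3 normalised counts in the control libraries and 1694, 2092 and 1595 in the Zfp266-KO libraries, an 8.20-fold difference (log2 fold change 3.04 ± 0.24 (SE), FDR 3.26e-32). Control MEFs had no Piwil2 count, control ESCs 226 ± 16.3 (SD, n = 3) and day 7 controls 559 ± 133, so each day 5 Zfp266-KO library was above the control mean of MEFs, of each reprogramming day and of ESCs. Tex19.1, a transposon-linked gene of germ cells and placenta, went from 19.4, 11.4 and 9.37 to 26.7, 56.7 and 42.4 (log2 fold change 1.63 ± 0.36 (SE), FDR 0.000371). The partners of Piwil2 in the piRNA pathway did not pass: Tdrd1 had a log2 fold change of -0.29 ± 0.14 (FDR 0.212), Ddx4 of -0.32 ± 0.39 (FDR 0.751), and Mael was at 0 in all 6 libraries.

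The cell cycle list had the largest number of genes that rose. Of 36 DNA replication and cell division genes, 20 rose (55.6%, against 4.72% of all tested genes) and none fell. The median log2 fold change was 0.37, and 1 gene passed the fold threshold. Tk1, the thymidine kinase of the nucleotide salvage pathway, was 416, 377 and 326 normalised counts in the control libraries and 814, 965 and 787 in the Zfp266-KO libraries (log2 fold change 1.19 ± 0.11 (SE), FDR 3.08e-25). Ccnb2, a mitotic cyclin, went from 647, 623 and 537 to 905, 964 and 946 (log2 fold change 0.64 ± 0.08 (SE), FDR 3.37e-11), and Top2a, the topoisomerase of dividing cells, from 6826, 6509 and 5516 to 8646, 9032 and 8765 (log2 fold change 0.49 ± 0.08 (SE), FDR 8.82e-08). The groups did not overlap in any of these 3 genes, which the lowest-FDR rule required for Tk1 only. The replication helicase subunits Mcm2, Mcm3, Mcm4, Mcm5 and Mcm7 rose by 0.57, 0.35, 0.44, 0.44 and 0.36 on the log2 scale, and Mcm6 (0.18, FDR 0.646) did not pass. Mki67 had 0.65 ± 0.38 (FDR 0.365). None of 20 p53 targets and cell cycle inhibitors passed: Cdkn1a (p21) had -0.26 ± 0.14 (FDR 0.298) and Cdkn2a -0.02 ± 0.18 (FDR 0.977).

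Of 12 Polycomb repressive complex 2 subunits, 3 rose (25%, against 4.72% of all tested genes) and none fell. Suz12, a core subunit, went from 1784, 1575 and 1600.0 to 2260.4, 2415 and 2398 (log2 fold change 0.51 ± 0.06 (SE), FDR 1.38e-12). The accessory subunits Aebp2 and Mtf2 rose by 0.38 ± 0.08 and 0.27 ± 0.08 (FDR 0.000292 and 0.0151); Mtf2 did not pass without control replicate 3 or without Zfp266-KO replicate 1 or 2. The catalytic subunit Ezh2 had 0.18 ± 0.07 (FDR 0.102). Of 10 DNA methylation enzymes and cofactors, 4 rose (40%) and none fell. They included Tet1 (above) and Uhrf1, which guides maintenance methylation. Uhrf1 was 2902, 2312 and 2048 in controls and 3658, 3997 and 3397 in Zfp266-KO cells (log2 fold change 0.61 ± 0.12 (SE), FDR 9.07e-05). The others were Tet2 (log2 fold change 0.62 ± 0.16, FDR 0.0032, lost without control replicate 1) and the maintenance enzyme Dnmt1 (0.46 ± 0.14, FDR 0.0229). The de novo enzymes Dnmt3a and Dnmt3b had -0.22 and -0.01 and did not pass. Their cofactor Dnmt3l had 2.34 ± 0.83 (FDR 0.0628) and rose with the replicate block (2.30, FDR 0.0331).

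**Figure D3:**
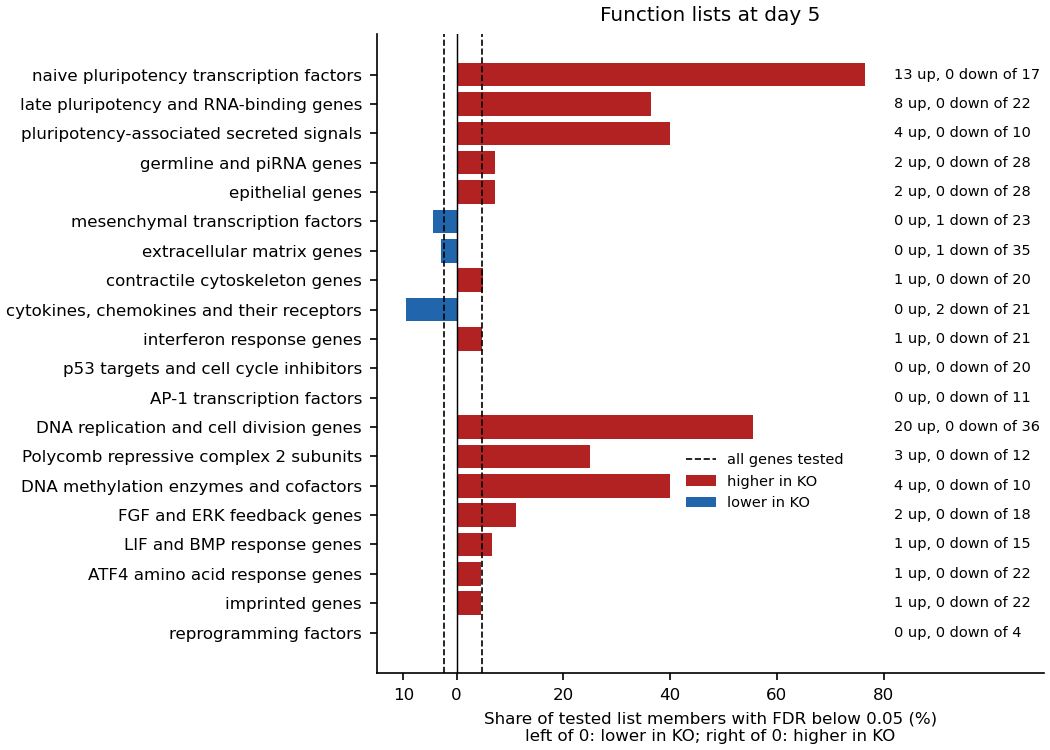
Share of the tested members of each of 20 function lists with an FDR below 0.05 at day 5, drawn to the right of 0 for genes higher in Zfp266-KO cells and to the left for genes lower. Dashed lines mark the shares among all tested genes (4.72% and 2.43%), and the counts stand at the right; the 3 pluripotency lists, the DNA methylation list and the cell division list reach between 36.4% and 76.5%.

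Epithelial genes, which mark an early phase of reprogramming, rose in 2 of 28 members (7.14%, against 4.72% of all tested genes) and fell in none. With the 6 day 5 libraries alone, 8 rose and 2 fell, and with the replicate block Cldn3, a tight junction claudin, fell (log2 fold change -0.99, FDR 0.0432). Erbb3, a receptor tyrosine kinase of epithelia, was 2604, 2135 and 2183 normalised counts in the control libraries and 5815, 5764 and 5058 in the Zfp266-KO libraries (log2 fold change 1.26 ± 0.23 (SE), FDR 3.51e-06). Ocln, a tight junction protein, was 265, 279 and 234 in controls and 391, 391 and 357 in Zfp266-KO cells (log2 fold change 0.55 ± 0.17 (SE), FDR 0.0278), and its call was lost in edgeR, without control replicate 1 or 3, and without any 1 of the Zfp266-KO libraries. Cdh1 (E-cadherin) had a log2 fold change of 0.20 ± 0.21 (FDR 0.713) and Epcam of 0.38 ± 0.29 (FDR 0.552).

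Several of the genes with the lowest FDR belonged to none of these programmes and were not ESC-associated by the test described further on. Snx20, a sorting nexin of blood cells, was 73.8, 88.8 and 107 normalised counts in the control libraries and 402, 547 and 494 in the Zfp266-KO libraries (log2 fold change 2.42 ± 0.20 (SE), FDR 1.91e-29), against 48.1 ± 10.3 (SD, n = 3) in MEFs and 5.48 ± 0.985 in ESCs. Nod2, a sensor of bacterial peptidoglycan, is encoded 11186 bases away on chromosome 8 and was 62.1, 89.8 and 122 in controls and 322, 339 and 383 in Zfp266-KO cells (log2 fold change 1.93 ± 0.33 (SE), FDR 1.33e-06). For Snx20 and Nod2 each Zfp266-KO library exceeded the control means of MEFs, of days 3, 5 and 7 and of ESCs. Aldh2, the mitochondrial aldehyde dehydrogenase, was 594, 599.7 and 727 and 1527, 1843 and 1421 (log2 fold change 1.32 ± 0.12 (SE), FDR 2.11e-25). Atad2b, a bromodomain ATPase, was 860.1, 862 and 971 and 1822, 2273 and 2315 (log2 fold change 1.25 ± 0.12 (SE), FDR 6.28e-23), and Jade2, a subunit of histone acetyltransferase complexes, 416, 368 and 360.2 and 794, 944 and 832 (log2 fold change 1.17 ± 0.14 (SE), FDR 3.97e-14). The metalloprotease Adam19, which is higher in control MEFs (6843 ± 171) than in ESCs (2777 ± 376), went from 433, 536 and 462 to 1078, 1886 and 1128 (log2 fold change 1.51 ± 0.21 (SE), FDR 3.28e-10). Efhd1, a mitochondrial calcium-binding protein, was 42.7, 45.4 and 59.3 and 164, 172 and 168 (FDR 0.000142). The glycosyltransferase B3gnt3 was 341, 221 and 182 and 820.2, 722 and 453 (FDR 0.0161), a call lost without control replicate 2 or 3 or without Zfp266-KO replicate 1 or 2. The lowest FDR of all tested genes belonged to Polr2b, the second-largest subunit of RNA polymerase II, named after its values were seen; its mean went from 4137 to 7291, under the fold threshold (log2 fold change 0.82 ± 0.06 (SE), FDR 1.41e-38).

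Among the genes with lower levels in Zfp266-KO cells, Cpne7, a calcium-dependent membrane-binding copine, was 136, 188 and 195 normalised counts in the control libraries and 45.8, 44.1 and 54.7 in the Zfp266-KO libraries (log2 fold change -1.84 ± 0.33 (SE), FDR 2.44e-06). Vash2, a tubulin carboxypeptidase linked to blood vessel growth, was 775, 526 and 574 in controls and 350.0, 200.4 and 296 in Zfp266-KO cells (log2 fold change -1.15 ± 0.20 (SE), FDR 2.95e-06). Wnt4, a Wnt ligand of mesenchyme and kidney, was 441, 438 and 515 and 249, 201 and 240.5 (log2 fold change -1.01 ± 0.20 (SE), FDR 4.11e-05). In all 3 genes the groups were separate, and every control library was higher. The rule that named them by lowest FDR required separate groups, so the separation is not further evidence.

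Nt5dc2, a protein of the nucleotidase family, was 251, 278 and 255 in controls and 97.3, 101 and 178 in Zfp266-KO cells (log2 fold change -1.05 ± 0.19, FDR 3.36e-06). Gstm5, a glutathione transferase, was 213, 255 and 225 and 107, 92.3 and 121 (-1.11 ± 0.21, FDR 7.86e-06). St8sia2, which adds polysialic acid to NCAM, was 72.8, 70.2 and 64.5 and 37.2, 18.9 and 38.5 (-1.10 ± 0.21, FDR 1.28e-05). These 3 are more abundant in control MEFs than at day 5. Nt5dc2 is also more abundant in control ESCs, with 2740 ± 110 (SD, n = 3) there and 2697 ± 31.6 in MEFs. The same holds for Erc2, with 133 ± 4.61 in ESCs and 161 ± 10.2 in MEFs. Erc2, an active-zone scaffold of synapses, Tmem98, a membrane protein, and Slc4a3, an anion exchanger, had log2 fold changes of -1.33 ± 0.24, -1.02 ± 0.20 and -1.04 ± 0.23 with FDRs of 5.16e-06, 2.75e-05 and 0.000276. Csgalnact1, which starts chondroitin sulfate chains, and Hebp2, a haem-binding protein, had -1.44 ± 0.32 and -1.02 ± 0.23 (FDR 0.000366 and 0.000395). Csgalnact1 had 1962 ± 25.3 (SD, n = 3) in MEFs, 49.4 ± 19.3 at day 3 and 2.26 ± 0.669 in ESCs, so its control level was already far below that of MEFs by day 3.

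Of 35 extracellular matrix genes, 1 fell (2.86%, against 2.43% of all tested genes) and none rose. Fbn1, the microfibril protein fibrillin, was 22532, 20109 and 27393 in controls and 16039, 14254 and 16502 in Zfp266-KO cells (log2 fold change -0.58 ± 0.19 (SE), FDR 0.0311), and its call was lost with the replicate block (FDR 0.0575), without control replicate 1 or 3, and without any 1 of the Zfp266-KO libraries. The list had a median log2 fold change of -0.26, and 7 of the 35 genes had a positive sign, against 47.4% of all tested genes. When the spread was estimated from the 6 day 5 libraries alone, 8 of the 35 fell, and with the replicate block 2, the proteoglycan Dcn (-0.54, FDR 0.01) and elastin, Eln (-0.75, FDR 0.00852). Of 23 tested mesenchymal transcription factors, 1 fell (4.35%): Twist2, a repressor of dermal and bone progenitors, was 183, 185 and 173 and 142, 110.2 and 126 (log2 fold change -0.51 ± 0.15 (SE), FDR 0.0179), and it did not pass in edgeR, with the 6 day 5 libraries and the replicate block, without control replicate 1 or 2, or without Zfp266-KO replicate 2 or 3. Prrx1 and Zeb1 had -0.05 ± 0.15 and -0.04 ± 0.24. Of 20 contractile cytoskeleton genes, 1 rose (5%, against 4.72% of all tested genes) and none fell. It was the actin crosslinker Actn1 (3668, 3113 and 3518 in controls, 4960.4, 5523 and 5082 in Zfp266-KO cells, log2 fold change 0.60 ± 0.10 (SE), FDR 6.66e-07). With the replicate block the smooth muscle actin Actg2 fell (-0.65, FDR 0.00211).

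Of 21 tested cytokines, chemokines and their receptors, 2 fell (9.52%, against 2.43% of all tested genes) and none rose. Cd40, a TNF receptor family member known from antigen-presenting cells, was 1554, 1685 and 1674 normalised counts in the control libraries and 909, 808 and 950.3 in the Zfp266-KO libraries (log2 fold change -0.88 ± 0.12 (SE), FDR 1.53e-11). Csf1, the macrophage growth factor, was 365, 346 and 384 and 221, 229.8 and 264 (log2 fold change -0.61 ± 0.12 (SE), FDR 3.94e-05). Both were separate between groups. The other lists held 1 changed gene or none. Where 1 gene rose, it was 4.55% to 6.67% of the tested members, near the 4.72% of all tested genes. Bst2 (tetherin) rose among 21 tested interferon response genes (log2 fold change 0.61 ± 0.11 (SE), FDR 4.33e-06), Id2 among 15 LIF and BMP response genes (log2 fold change 0.54 ± 0.12 (SE), FDR 0.000281), and Zdbf2 among 22 imprinted genes (log2 fold change 0.80 ± 0.15 (SE), FDR 2.23e-05). With the replicate block, Mest fell among the imprinted genes (-0.42, FDR 0.0291). Cth, which makes cysteine, rose among 22 ATF4 amino acid response genes (log2 fold change 0.79 ± 0.26 (SE), FDR 0.0354), but not in edgeR, without control replicate 1 or 3, or without any 1 Zfp266-KO library. None of 11 tested AP-1 factors passed, with values between -0.35 for Atf3 and 0.19 for Fosl1.

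The DEGs were then placed by their level in control MEFs and ESCs. A gene was called ESC-associated or MEF-associated when control ESCs and control MEFs differed at an FDR below 0.05 and an absolute log2 fold change above 1. Of the 143 higher genes, 119 were ESC-associated (83.2%, exact 95% interval 76.1% to 88.9%), 11 were MEF-associated and 13 neither, whereas 24.7% of all tested genes were ESC-associated. Of the 67 lower genes, 40 were MEF-associated (59.7%, 47.0% to 71.5%), 15 ESC-associated and 12 neither, whereas 30.3% of all tested genes were MEF-associated. Without Zfp266-KO replicate 2, the MEF-associated share of the lower genes was 74.1%. The intervals cover counting error over genes only, and genes are not independent of one another. Among the higher genes, 63 were under 10 normalised counts in MEFs and at least 50 in ESCs (44.1%, against 3.85% of all tested genes). Among the lower genes, 22 were at least 50 in MEFs and under 10 in ESCs (32.8%, against 5.39%).

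**Figure D4:**
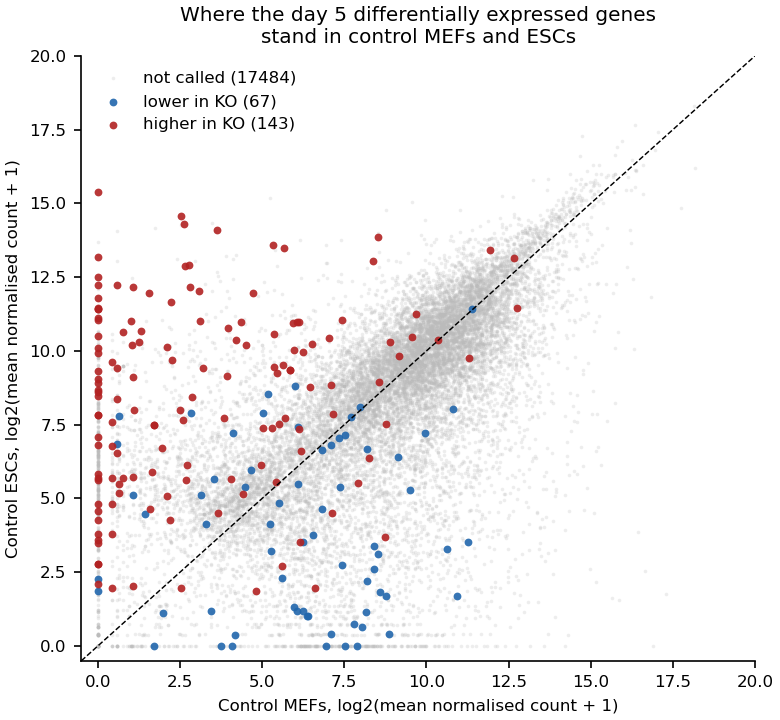
Mean level of each tested gene in control MEFs (horizontal) and control ESCs (vertical), both as log2(mean normalised count + 1), with the 143 genes higher (red) and the 67 genes lower (blue) in Zfp266-KO cells at day 5. The dashed line marks equal levels; 119 red points are ESC-associated and many stand at 0 in MEFs, while 40 blue points are MEF-associated.

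The ESC-associated higher genes ranged widely in their distance from the ESC level at day 5. Over these 119 genes, the median level was 3.16% of the control ESC mean in day 5 controls and 9.83% in day 5 Zfp266-KO cells, with 62 of the 119 under 10% of ESCs in the knockout and 20 above the ESC mean, against 86 and 12 in day 5 controls. In day 7 controls the median was 19.9%. Of the 143 higher genes, 42 reached in day 5 Zfp266-KO cells at least the mean of day 7 controls (29.4%, against 47.3% of all tested genes). Along the control path, 126 of the 143 were higher at day 7 than at day 3 by the DEG criteria, against 10.9% of all tested genes, and none was lower. Of the 67 lower genes, 25 were lower at day 7 than at day 3 in controls (4.1% of all tested genes) and 6 were higher.

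Some DEGs peaked between the ends of the path in controls. A gene was called transient when its mean in control cells at day 3 or day 7 was at least 2 times the means in both MEFs and ESCs. This held for 21 of the 143 higher genes (14.7%) and 25 of the 67 lower genes (37.3%), against 11.3% of all tested genes. The class overlaps the previous ones: 17 of the 21 were also ESC-associated, and of the 25, 12 were also MEF-associated and 6 ESC-associated. Of all 143 higher genes, transient ones included, 102 (71.3%) were ESC-associated and not transient, against 22.4% of all tested genes. The transient higher genes included Piwil2, Erbb3, Nod2 and B3gnt3 (above), and the lower ones Cpne7, Fgf3 and Hebp2. Further lower genes of this kind with the largest changes in their class included Hsd17b2, a steroid dehydrogenase (78.6, 115 and 118 and 42.0, 32.5 and 57.0, FDR 0.000506), Ces1d, a carboxylesterase (79.6, 92.9 and 80.2 and 37.2, 29.4 and 30.1, FDR 0.00153), and Rasef, a small GTPase (371, 285 and 351 and 184, 70.3 and 132, FDR 0.00765). The groups were separate in all 3. Rasef did not pass without control replicate 3 or Zfp266-KO replicate 2. The unnamed transcript Gm19410 (log2 fold change -1.25 ± 0.38 (SE), FDR 0.0186) was also transient, and it did not pass in edgeR, without control replicate 3 or without Zfp266-KO replicate 1 or 2.

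The names of the classes cover wide differences in level. Hsd17b2 counts as ESC-associated with 0 in MEFs and 2.64 ± 1.62 in ESCs, while control day 5 cells had a mean of 104. Ces1d counts as MEF-associated with 2.30 ± 0.662 in MEFs and 0 in ESCs. In all, 27 of the 143 higher and 18 of the 67 lower genes were under 50 normalised counts in both MEFs and ESCs, against 12.5% of all tested genes. A pair of lower genes of largest change stood elsewhere: Fut4, a fucosyltransferase that makes the Lewis X (SSEA-1) epitope, was MEF-associated (72.8, 73.3 and 79.1 in day 5 controls, 28.6, 19.9 and 40.1 in Zfp266-KO cells, log2 fold change -1.33 ± 0.34 (SE), FDR 0.00361, not passed without Zfp266-KO replicate 2), and Kcnn1, a potassium channel, was of neither class (log2 fold change -1.33 ± 0.43 (SE), FDR 0.0332, not passed in edgeR, without control replicate 2 or 3, or without Zfp266-KO replicate 1 or 2).

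Day 3 and day 7 had their own libraries, so the day 5 DEGs could be read in libraries outside the day 5 contrast. The days shared the spread estimated for each gene, and the labels do not say whether they shared cell preparations. At day 3, 19 genes (0.119%) were DEGs with higher and 7 (0.0437%) with lower levels in Zfp266-KO cells. Of the 143 genes higher at day 5, 14 were DEGs in the same direction at day 3 and 110 had the same sign, with a median log2 fold change of 0.50. Of the 67 lower genes, 1 was a DEG at day 3 and 58 had the same sign, with a median of -0.42. The genes that passed at day 3 included Piwil2 (log2 fold change 3.22, FDR 7.93e-23), Snx20 (2.20, FDR 5.04e-18), Erbb3 (1.51, FDR 1.03e-07) and Nod2 (2.03, FDR 8.95e-06), and the lower DEG was Cpne7 (-1.31, FDR 0.0111). Nanog (0.55, FDR 1) and Esrrb (0.46, FDR 0.38) did not pass at day 3.

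At day 7, 831 genes (3.95%) were DEGs with higher and 929 (4.42%) with lower levels in Zfp266-KO cells. Of the 143 genes higher at day 5, 108 were DEGs in the same direction at day 7 and all 143 had the same sign, with a median log2 fold change of 1.55. Of the 67 lower genes, 45 were DEGs at day 7 and 64 had the same sign, with a median of -1.39, against -1.18 at day 5. Of all 210 DEGs, 38 did not pass an FDR of 0.05 at day 7, 19 in each direction.

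The difference between the days was tested as an interaction term. Between day 5 and day 7, 193 genes (1.17% of 16447) had a fold change more positive at day 7 and 77 (0.468%) one more negative, at an FDR below 0.05 and a difference above 1. Of the day 5 DEGs, 7 were among them. The fold changes of Tcl1 and Fgf4 were smaller at day 7 than at day 5. The log2 fold change of Tcl1 was 3.43 at day 5 and 1.11 at day 7 (difference -2.31 ± 0.46, FDR 9.77e-05). That of Fgf4 was 2.70 and 1.56 (difference -1.14 ± 0.30, FDR 0.00582). Dppa4 and Morc1, a germline nuclear protein, differed more at day 7; the difference was 1.37 ± 0.42, FDR 0.0253 for Dppa4, with an FDR of 0.0258 for Morc1. Among the lower genes, Slc4a3 did not pass at day 7 (FDR 0.995; difference 1.03 ± 0.33, FDR 0.0326), Fam213b had a positive sign (0.46, FDR 0.148; difference 1.75 ± 0.43, FDR 0.00288), and C530008M17Rik was further below the controls (difference -1.37 ± 0.43, FDR 0.031). Between day 3 and day 5, 7 genes in all passed the same test, and 5 of them were DEGs at day 5: Tfcp2l1 (difference 1.70 ± 0.28, FDR 9.54e-06), Ubxn11 (2.83 ± 0.58, FDR 0.00418), Adam19 (1.44 ± 0.30, FDR 0.00438), Trh (1.90 ± 0.44, FDR 0.0315) and Tet1 (1.15 ± 0.28, FDR 0.0482). Tk1 differed by 0.97 ± 0.16, FDR 9.54e-06, just under the size limit. Both interaction tests contain the day 5 fold change that chose the DEGs, so their overlap with the DEGs is not separate evidence.

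**Figure D5:**
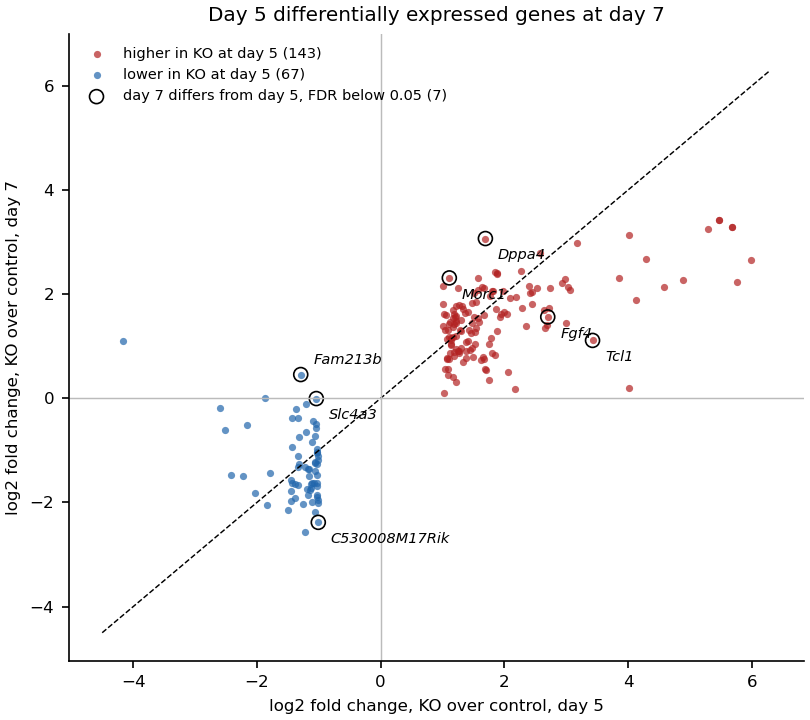
Fitted log2 fold change of Zfp266-KO over control at day 5 (horizontal) and day 7 (vertical) for the 143 genes higher (red) and the 67 genes lower (blue) at day 5. The dashed line marks equal values, and the 7 ringed genes differed between the days by the interaction test; fitted values of genes with a group at or near 0 depend on the fit and are not bounds.

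Some DEGs lay near one another on a chromosome. The pairs are a description only: no such count was made for other genes, and a gene in a cluster can stand in several pairs. Within 100000 bases of one another there were 26 pairs, of which 23 changed in the same direction and 3 in opposite directions, and the opposite ones were Fgf3 with Fgf4, Fgf4 with Fgf15, and Cenpm with Sept3. Pairs that rose together included Snx20 and Nod2, Dppa4 and Dppa2 (9670 bases apart), Triml1 and Triml2 (39054 bases), and Nanog and Gdf3 (97401 bases). Some pairs are copies that share sequence, so their counts may be split between them: the Dppa5a, Dppa5b and Dppa5c genes, Sprr2a1 and Sprr2a2, and Bglap and Bglap2. The same limit holds for the pseudogenes Zfp42-ps1 and Tdgf1-ps1 beside Zfp42 and Tdgf1. An exon of a gene on the opposite strand overlapped 26 of the 143 higher and 13 of the 67 lower genes (26.9% of all tested genes), Aldh2, Tk1, Adam19, Efhd1, Nt5dc2, Erc2, Gstm5, Fgf15 and Kcnn1 among those named here. The libraries were stranded, but the strand setting of the counting is not given in the sources used here.

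Promoter windows of 300 bases were found by symbol for 85 of the higher and 39 of the lower genes. The octamer ATTTGCAT of POU factors was present on either strand in 2.35% of the higher, 2.56% of the lower and 1.43% of all tested genes with a window. The KLF-type motif GGGTGTGG was present in 5.88%, 2.56% and 3.81%, and the E-box CACGTG in 7.06%, 7.69% and 10.0%. Among the higher and the lower genes these are 1 to 6 genes each, and a match is a description of the letters only. Zfp42 is shown because its window (RefSeq, GRCm38.p6, chr8:43306960-43307259, minus strand) holds both the octamer and, on the opposite strand, the KLF-type motif, which are in capitals.
Zfp42: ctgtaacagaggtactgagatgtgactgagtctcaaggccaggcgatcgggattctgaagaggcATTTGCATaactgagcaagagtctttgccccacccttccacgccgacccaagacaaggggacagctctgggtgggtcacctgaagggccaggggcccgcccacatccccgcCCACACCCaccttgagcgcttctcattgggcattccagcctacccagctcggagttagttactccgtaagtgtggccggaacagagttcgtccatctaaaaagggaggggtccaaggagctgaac

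Markers of cell types were summed in each library as a check of the label. Fibroblast markers were at 29048 to 33177 normalised counts in day 5 controls and 23425 to 29409 in Zfp266-KO cells, against 444005 to 459037 in control MEFs, and 1 of 11 tested members (Twist2) fell. Pluripotent cell markers were at 8523 to 8904 in controls and 9144 to 10753 in Zfp266-KO cells, against 119717 to 125327 in control ESCs. Tdh alone made up a mean of 7479.7 of that sum in controls and 7106 in Zfp266-KO cells, while 7 of the 10 members rose. The day 5 libraries thus held both sets at levels well below those of MEFs and ESCs. Keratinocyte markers were high at 35742 to 45676 in controls and 35102 to 36610 in Zfp266-KO cells, against 60.6 to 88.7 in MEFs and 1154 to 1271 in ESCs, and 1 of 5, Krt6a, fell (log2 fold change -0.72 ± 0.24, FDR 0.0386). Immune markers (166 to 306 in controls, 188 to 209.8 in Zfp266-KO cells, with Cd3e at 0) and endothelial markers (534 to 806 and 539 to 731, with Emcn at 0) had no changed member. The same held for neural markers (19058 to 19752 and 15587 to 17342), muscle markers (36.9 to 53.7 and 37.8 to 51.4) and primitive endoderm markers (1003 to 1055 and 1050.1 to 1297). Trophoblast markers summed to 604 to 624 in controls and 392 to 422 in Zfp266-KO cells, so these groups did not overlap; nor did the groups for the neural and the pluripotent sums. Control MEFs held 499 to 596 and control ESCs 60.2 to 80.8. The keratin gene Krt7 made up most of the sum, at 447, 503 and 483 normalised counts in the control libraries and 299, 325 and 281 in the Zfp266-KO libraries, and did not pass (log2 fold change -0.66 ± 0.57 (SE), FDR 0.604). None of the 5 tested members passed, 1 of the 5 had a positive sign, and their median log2 fold change was -0.50. Their part in the results was not tested.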

How the data were processed

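RNA of flow-sorted cells was made into NEB Ultra II stranded mRNA libraries and sequenced. Per the labels and the study's methods, the authors checked reads with FastQC, trimmed them with Cutadapt, aligned them with STAR to GRCm38.p6 and counted them per gene with Rsubread; the deposited counts are whole numbers for 21442 genes in 36 libraries. The study's methods name library preparation date as a batch effect, which the authors removed for exploratory plots only; the labels used here give no dates, so batch could not be a term in the fit or be set against the replicate numbers. The annotation release, the tool versions and the strand setting of the counting are not given in the sources used here. The tables of the authors' own comparisons and the normalised tables were not used.

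Groups came from the labels. All 36 libraries were fitted in DESeq2 1.42.0 (R 4.3.3) with a factor of 12 groups, with default independent filtering, a Wald test and Benjamini-Hochberg adjustment; fold changes were not shrunk. Interactions were contrasts of the same fit. edgeR 4.0.16 (quasi-likelihood) was an alternative. Gene positions came from GENCODE M21 (GRCm38), which held 21390 of the 21442 genes; promoter sequences came from RefSeq (GRCm38.p6). The 6 day 5 libraries held 29040333 to 39610939 counts each, and 3 counts in 1 library correspond to 2.31 to 3.15 normalised counts; this floor and the intervals cover counting error only.

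Named genes were Zfp266, the 12 DEGs of lowest FDR in each direction whose libraries did not overlap, up to 3 members of each function list with the lowest FDR among those passing, and, for each level class and direction, up to 3 DEGs of largest change with a mean of at least 50 normalised counts. The lowest-FDR rule required separate groups, so separation is not further evidence for the genes it named. Other genes named were chosen after their values were seen. The members and the lists were chosen with earlier results of these data known. List symbols without a row in the count table (Asz1, Ccl5, Cxcl2, Cxcl15, Il1a, Il1b, Csf2, Csf3, Tnf, Tnfrsf9, Mx1, Mx2, Myod1, Myog, Myf5, Cdx2, Tpbpa, Trp63) were not analysed here. Some genes that the naming rule or a list holds are not reported here.

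Control and Zfp266-KO libraries share replicate numbers. Over 13541 genes, deviations from the group means correlated at 0.42, 0.17 and 0.42 for equal numbers and between -0.36 and -0.04 for unequal ones. Deviations within a group cancel out, so the negative values follow from the positive ones and are not separate evidence. The numbers were taken as a possible pairing of the samples. A fit with the replicate number as a block was therefore run beside the main one. Other alternatives were edgeR's TMM size factors, a filter of at least 10 counts in 3 libraries, the 6 day 5 libraries alone, and leaving out each day 5 library. Library pairs within a group differed by 5.40 to 11.5 times the counting variance, so none was a repeat deposit. The fitting script was tested on simulated data with known changes.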

Additional observations from a re-analysis of the deposited data

Results flagged for a closer look

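Some named genes had a knockout effect that differed between reprogramming days by the interaction term of the fit over all genes, at an FDR below 0.05. The log2 fold change at day 7 minus that at day 5 was -1.14 for Fgf4 (FDR 0.00582), -2.31 for Tcl1 (FDR 9.76e-05), 1.03 for Slc4a3 (FDR 0.0326), -1.01 for Fbn1 (FDR 0.00585), -0.84 for Cd40 (FDR 0.000115), -0.71 for Csf1 (FDR 0.00342), 0.46 for Ccnb2 (FDR 0.00435), 0.66 for Suz12 (FDR 2.51e-10), 0.37 for Aebp2 (FDR 0.0347), 0.61 for Mtf2 (FDR 1.39e-05) and 1.17 for Zdbf2 (FDR 1.04e-05). The log2 fold change at day 5 minus that at day 3 was 0.97 for Tk1 (FDR 9.54e-06), 1.15 for Tet1 (FDR 0.0482), 1.06 for Zdbf2 (FDR 0.00112) and 1.44 for Adam19 (FDR 0.00438).

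On the log2 scale, Tcl1 and Fgf4 were further apart between groups at day 5 than at day 7. Suz12, Mtf2, Aebp2 and Ccnb2 passed the FDR at day 5 with small changes. On the same scale they were further apart at day 7, and so were Zdbf2, Cd40, Csf1 and Fbn1. In mean counts the gap of Tcl1 was wider at day 7 (415 in controls, 897 in Zfp266-KO cells) than at day 5 (25.3 and 271). The same held for Fgf4 (648 and 1915, against 44.6 and 289). For Cd40 it was narrower at day 7 (914 and 277) than at day 5 (1638 and 889). Groups of 3 libraries are too small for a test of single outlying libraries. Day 3, day 5 and day 7 libraries are separate samples. The study's methods name library preparation date as a batch effect, but the labels give no dates, so its part in the differences between days was not tested.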

How the results depend on the processing

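The direction held for each of the 210 DEGs under each of the 12 refitted alternatives. TMM size factors gave 143 higher and 67 lower genes, the low-count filter 149 and 74, edgeR 115 and 58, the replicate block over all libraries 138 and 61, and the 6 day 5 libraries alone 96 and 75. These 6 libraries with the replicate block gave 87 higher genes. FDR alone gave 835 higher and 430 lower genes, 1265 in all. Leaving out 1 day 5 library gave 85 to 142 higher, 27 to 86 lower and 112 to 223 DEGs in all, with the lowest values without Zfp266-KO replicate 2. Of the DEGs of the full fit, edgeR also called 105 of 143 and 45 of 67, the 6 libraries alone 83 and 49, the fit without Zfp266-KO replicate 2 85 and 18, and the fit without control replicate 3 99 and 30.

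The ESC-associated share of the higher genes was 72.9% with the 6 day 5 libraries and 74.7% with these and the replicate block, and 81.4% to 87.1% without 1 library. The MEF-associated share of the lower genes was 51.7% to 74.1% without 1 library. The share of DEGs that were higher was 68.1%, and it was 56.1% with the 6 day 5 libraries, 56.5% with these and the replicate block, and 61.4% to 75.9% without 1 library. Members of the function lists past the FDR numbered 66, and 113 with the 6 day 5 libraries or 118 with these and the replicate block; the additional calls included the matrix list (8 and 10 fell), the FGF and ERK list (9 and 11 rose), the epithelial list (8 rose in both), the Polycomb list (7 and 6 rose), the p53 list (3 fell in both), the imprinted list (4 and 3 fell) and the cell division list (29 and 26 rose). The cause was not tested. Genes whose effect differed between day 5 and day 7 numbered 270, 156 in edgeR and 188 to 283 without 1 library; between day 3 and day 5 they numbered 7, 1 in edgeR, and 3 to 11 without 1 library.

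Among 729 refits of the 61 named genes, none changed sign and 56 lost the call. Among named genes, the replicate block over all libraries ended the call of Fbn1, and in the lists it added 7 falls, given beside their lists, and 6 rises (Dnmt3l, Slc7a3, Gins1, Pcna, Ccne1 and Plk1). With the 6 day 5 libraries and the block, Twist2 did not pass, and Tex19.1 and Nodal had no FDR; Nodal had none with the 6 libraries alone either. Genes under about 10 normalised counts in controls, 51 of the 143 higher ones, are the least certain in size.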
